A study of Mus musculus with 9 samples.

Results

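The cytosolic heat shock genes Hspa1a, Hspa1b, Hspa8, Dnajb1, Hsph1, Hsp90aa1, Hsp90ab1, Hspb1, Hspe1 and Hspd1 were described in mouse liver. They were chosen by symbol, all 10 of 10 were found among the 22701 genes of the deposited table, and all 10 passed the low-value filter (a mean of 10) and so were among the 13845 genes tested. The label of the set holds for 8 of them: Hspd1 and Hspe1 encode HSP60 and HSP10, the chaperonin and cochaperonin of the mitochondrial matrix.

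RNA came from the frozen livers of 9 mice, 5 weeks old and of a background labelled C57BL/6, 129svPas. WT was 3 livers. HP1a_KO was 2 livers of HP1a-/- mice, HP1ab_KO was 1 liver labelled HP1a-/-, HP1bliver-/-, and HP1ag_KO was 3 livers labelled HP1a-/-, HP1gliver-/-. All 6 mutant livers therefore lack HP1α in the whole animal, and HP1β or HP1γ is deleted only in the liver, by a driver not given in the sources used here. HP1α, HP1β and HP1γ are heterochromatin proteins encoded by Cbx5, Cbx1 and Cbx3, and the comparisons ask what their loss does to liver transcripts. Each library carries its own animal number, with no litter, sex or time of dissection given, so p-values measure the spread between these animals only. Animal numbers were consecutive for WT replicate 3 and HP1ag_KO replicate 1, and for WT replicate 2 and HP1ag_KO replicate 3. They were also consecutive for HP1a_KO replicates 1 and 2. Whether such animals shared a litter or a day of dissection is not given and was not tested. In bulk liver, fewer cells of a type and less RNA per cell cannot be told apart.

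Heat shock proteins are chaperones that hold, fold and refold other proteins. HSP70 proteins (Hspa1a, Hspa1b, Hspa8) bind unfolded stretches and release them in a cycle driven by J-domain proteins such as Dnajb1 and by exchange factors such as Hsph1, and HSP90 proteins (Hsp90aa1, Hsp90ab1) act on later folding intermediates such as hormone receptors and kinases. Heat shock factor 1 binds repeated nGAAn units in the promoters of the inducible genes when unfolded proteins accumulate, whereas Hspa8 and Hsp90ab1 are constitutive. In the liver, chaperone transcripts are also known to follow body temperature and feeding over the day.

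The heat shock element is shown first, since it is the sequence through which heat shock factors are known to act on these genes. It was searched for in RefSeq promoters of GRCm38.p6, in the 250 bases before each start, as 2 facing units on either strand (TTCNNGAA or GAANNTTC), and as 3 units, the 2-unit form followed by a further TTC or GAA in alternation after any 2 bases. Entries existed for 7 members, Hspa1a, Hspa1b, Dnajb1, Hsph1, Hspb1, Hspe1 and Hspd1. The 2-unit form was in 6 of these 7, beside 14.55% of 27025 genes, and the 3-unit form in 2 of 7, beside 0.51%. Dnajb1 had no match in its 2 windows, which says only that these letters are not there. A match is a description of the sequence and not a measured binding site. In the lines that follow, capitals mark the matched letters.
Hspa1b, chr17:34959239-34959488, minus strand: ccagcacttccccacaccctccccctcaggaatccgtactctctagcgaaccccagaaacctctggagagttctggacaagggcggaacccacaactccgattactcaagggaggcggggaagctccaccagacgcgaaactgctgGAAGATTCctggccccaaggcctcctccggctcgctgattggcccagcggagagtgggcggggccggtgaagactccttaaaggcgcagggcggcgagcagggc
Hspb1, chr5:135887669-135887918, plus strand: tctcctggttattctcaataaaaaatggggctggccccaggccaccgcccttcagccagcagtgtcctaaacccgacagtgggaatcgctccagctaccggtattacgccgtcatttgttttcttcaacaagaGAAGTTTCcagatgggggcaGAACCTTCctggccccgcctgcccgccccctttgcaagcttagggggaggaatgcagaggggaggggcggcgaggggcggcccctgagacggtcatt
Hsph1, chr5:149636351-149636380, minus strand: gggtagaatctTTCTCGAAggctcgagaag
Hspe1, chr1:55088053-55088082, plus strand: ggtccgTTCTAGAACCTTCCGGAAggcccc
Hspd1, chr1:55088053-55088082, minus strand: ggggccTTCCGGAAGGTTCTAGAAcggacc
The Hspa1b element began 104 bases before the start. The Hspa1a window differed from that of Hspa1b at 3 of 250 bases and held the same element, also 104 bases before its start. The Hspb1 elements began 117 and 97 bases before the start, and the printed Hsph1 element 33 bases before one of its starts. The Hsph1 letters also lie inside the annotated Hsph1 gene, which reaches to 149636376 on the minus strand. Hspe1 and Hspd1 are arranged head to head and share 1 run of letters, read in opposite directions. It starts 89 bases before Hspe1 and 144 bases before a start of Hspd1, and lies inside a 5′ untranslated exon of another annotated Hspd1 transcript.

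Libraries held 16266423 to 36161177 reads in genes, fewest in HP1a_KO replicate 1. Values are normalised read counts, the deposited reads divided by 1 size factor per library, and are listed as WT replicates 1 to 3, HP1a_KO 1 and 2, HP1ab_KO, and HP1ag_KO 1 to 3. Cbx5 lay between 997.3 and 1542.3 in WT and between 500.7 and 813.1 in the 6 HP1α-null livers. Cbx1 was 217.3 in HP1ab_KO and 456.8 to 1081.5 elsewhere, and Cbx3 was 326.4 to 380 in HP1ag_KO and 536.3 to 640.5 elsewhere, so each targeted gene was lowest where its label says. The 7 hepatocyte markers summed to between 2.8878e+06 and 3.8023e+06 in each liver, while skeletal muscle (4.79 to 18.9) and exocrine pancreas (13.7 to 31.2) markers were near 0. The clock genes Dbp and Arntl, chosen after their values were seen, set 3 livers apart from the rest: Dbp was 68.4 in WT replicate 3, 333.6 in HP1ag_KO replicate 1 and 50.5 in HP1ag_KO replicate 2, and 1961.3 to 3036 in the other 6, and Arntl was 247 to 916.3 in those 3 and 26.7 to 118.3 in the others.

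The levels of the heat shock genes spanned a wide range. Compared per kilobase of exon, on the scale of normalised reads and as means over 9 livers, the constitutive HSP70 gene Hspa8 led with 5482 ± 830 (SD, n = 9), followed by Hsp90ab1 with 5148 ± 866 and Hspd1 with 4307 ± 538. Hspe1 (1779 ± 311) and Hsp90aa1 (1419 ± 509) formed a middle tier. Dnajb1 (197 ± 50.9), Hsph1 (158 ± 46.7), Hspb1 (66.8 ± 32.5) and the inducible HSP70 genes Hspa1b (141 ± 81.4) and Hspa1a (11.7 ± 10.6) lay lowest. Neighbours in this order overlapped in range over the 9 livers, except that Hspd1 lay above Hspe1 and Hsp90aa1 above Dnajb1 in 9 of 9 livers without overlap. Hspa8 was above Hsp90ab1 in 7 of 9 livers and Hsph1 above Hspa1b in 6 of 9.

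Across all 5 comparisons, limma, edgeR and DESeq2 called 0 of the 10 genes. The background for that count is 0% of 13845 tested genes called by limma in each comparison, and by DESeq2 0.715% for HP1ag_KO against WT, 0.643% for HP1a_KO against WT, 0.0795% for HP1ab_KO against WT, 3.32% for HP1ag_KO against HP1a_KO and 0.332% for the 6 HP1α-null livers against WT. At an unadjusted limma p under 0.05, 3 of 10 members were lower for HP1a_KO against WT, where 4.66% of all tested genes were lower and 5.48% higher. For HP1ag_KO against HP1a_KO 1 of 10 was higher, where 7.80% of all genes were higher and 8.38% lower. In the other comparisons 0 of 10 were, where the higher and lower shares of all genes were 3.84% and 3.74% for HP1ag_KO against WT, 2.05% and 1.65% for HP1ab_KO against WT, and 3.50% and 2.81% for the HP1α-null livers against WT. What the livers did show was strong differences between animals of 1 genotype, and these differed between members.

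**Figure D1:**
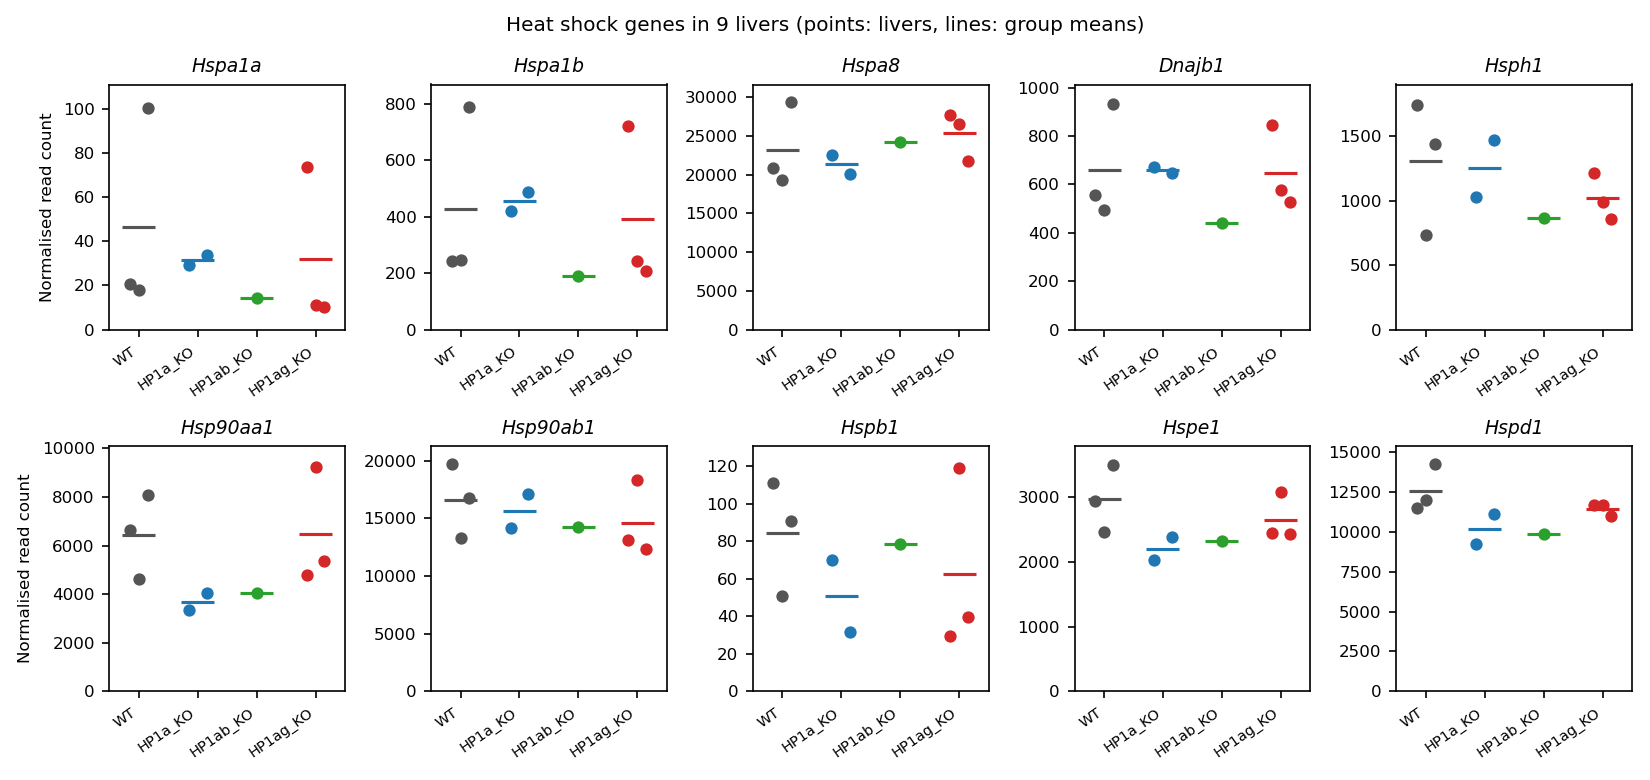
Normalised read counts of the 10 heat shock genes (linear axes from 0) by genotype, with 1 point per liver and a line at each group mean. Hspa1a, Hspa1b and Dnajb1 have 1 high liver in WT and 1 in HP1ag_KO, and Hsp90aa1 is lower in both HP1a_KO livers than in any WT liver.

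Hspa1b, an inducible cytosolic HSP70 on chromosome 17 (34956436 to 34959238, minus strand), was 241.9, 246.7 and 789.4 in WT, 420.2 and 487.8 in HP1a_KO, 190.2 in HP1ab_KO and 721.8, 244.5 and 207.2 in HP1ag_KO. WT replicate 3 and HP1ag_KO replicate 1 stood far above the other livers of their genotypes, and the 2 HP1a_KO livers lay between. The group means were 426 ± 315 (SD, n = 3) in WT, 454 ± 47.8 (n = 2) in HP1a_KO and 391 ± 287 (n = 3) in HP1ag_KO. On the log2(value + 1) scale, HP1ag_KO differed from WT by -0.12 ± 0.57 (standard error, limma adjusted p = 0.975) and HP1a_KO by 0.32 ± 0.63 (limma adjusted p = 0.876), both smaller than the spread between livers.

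Hspa1a, its neighbour on the same strand (34969190 to 34972156), had 20.5, 18.1 and 100.2 in WT, 29.4 and 33.6 in HP1a_KO, 14.4 in HP1ab_KO and 73.8, 11.2 and 10.4 in HP1ag_KO. The same 2 livers were high, and the lowest value rested on 10 reads. The HP1ag_KO difference from WT was -0.66 ± 0.85 (limma adjusted p = 0.880). Of the distinct 50-base stretches in Hspa1a transcripts, 58.8% also occurred in Hspa1b, so reads could be split between the copies. Their sum, 262, 265 and 890 in WT, 450 and 521 in HP1a_KO, 205 in HP1ab_KO and 796, 256 and 218 in HP1ag_KO, was again highest in WT replicate 3 and HP1ag_KO replicate 1.

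Dnajb1, the HSP40 partner that stimulates HSP70's ATP hydrolysis (chromosome 8, 83608193 to 83612653, plus strand), was 554.1, 495.2 and 930.8 in WT, 673.3 and 647.8 in HP1a_KO, 438.7 in HP1ab_KO and 843.9, 575.4 and 525.2 in HP1ag_KO. It thus had the same 2 high livers as Hspa1b at a smaller amplitude, 2.12-fold from lowest to highest against 4.15-fold. Its HP1ag_KO mean (648 ± 171, SD, n = 3) and WT mean (660 ± 236, n = 3) differed by 0.00 on the log2 scale (standard error 0.26, limma adjusted p = 0.9997). Dnajb1 shared only 0.4% of its 50-base stretches with annotated transcripts of other genes. How the counting assigned its reads was not tested.

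The likeness of these genes across the 9 livers was measured on the log2(value + 1) scale, for 5 pairs taken from known partnerships. Hspa1b and Dnajb1 gave Pearson r = 0.961 (exact permutation p = 0.000121, adjusted over 5 pairs 0.000503, two-sided, n = 9) and Spearman rho = 0.883 (exact permutation p = 0.00308, adjusted 0.00513). Without the 2 livers farthest from the median, WT replicate 3 and HP1ag_KO replicate 1, r was 0.878 over 7 livers, so the relation held beyond those livers. Hspa1a and Hspa1b gave r = 0.959 (exact permutation p = 0.000201, adjusted 0.000503) and rho = 0.883, and r = 0.874 without the same 2 livers, a pair whose reads may be shared.

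Hspa8, the constitutive HSP70 (chromosome 9, 40800984 to 40810087, plus strand), was 20781, 19327 and 29326 in WT, 22582 and 20023 in HP1a_KO, 24241 in HP1ab_KO and 27672, 26535 and 21712 in HP1ag_KO. It varied 1.52-fold from lowest to highest, was again highest in WT replicate 3, and overlapped between genotypes. The HP1ag_KO mean was 25306 ± 3164 and the WT mean 23144 ± 5402 (SD, n = 3 each), a log2 difference of 0.15 ± 0.18 (limma adjusted p = 0.875). Its processed copy Gm15459, named after its values were seen, shares 34.6% of the 50-base stretches of Hspa8. Gm15459 was 4420, 58.1 and 124 in WT, 127 and 4109 in HP1a_KO, 115 in HP1ab_KO and 101, 102 and 4397 in HP1ag_KO. It made up 16.8 to 17.5% of the sum of both in WT replicate 1, HP1a_KO replicate 2 and HP1ag_KO replicate 3 and 0.300 to 0.557% in the other 6. With both added, the values were 25200, 19385 and 29449 in WT, 22708 and 24132 in HP1a_KO, 24356 in HP1ab_KO and 27773, 26637 and 26110 in HP1ag_KO, and the genotypes still overlapped. Whether these reads come from Gm15459 or from Hspa8 cannot be told apart in these counts.

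Hsph1, an HSP110 exchange factor for HSP70 (chromosome 5, 149614287 to 149636376, minus strand), was 1741.5, 731.4 and 1439.3 in WT, 1029.3 and 1471.1 in HP1a_KO, 861.4 in HP1ab_KO and 1213.9, 991.5 and 860.2 in HP1ag_KO. The WT livers alone spanned both the highest and the lowest value of all 9. HP1ag_KO differed from WT by -0.27 ± 0.31 (limma adjusted p = 0.859), within that spread.

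Hsp90aa1, the inducible cytosolic HSP90 (chromosome 12, 110690605 to 110702728, minus strand), followed another order. It was 6627.1, 4621.6 and 8092.5 in WT, 3324.5 and 4058.8 in HP1a_KO, 4060.9 in HP1ab_KO and 4805.6, 9235 and 5373 in HP1ag_KO. Both HP1a_KO livers and the HP1ab_KO liver lay below every WT and every HP1ag_KO liver, and HP1ag_KO replicate 2, not replicate 1, was the highest of all. The HP1a_KO mean was 3692 ± 519 (SD, n = 2), the WT mean 6447 ± 1742 (n = 3) and the HP1ag_KO mean 6471 ± 2410 (n = 3). The log2 difference of HP1a_KO from WT was -0.77 ± 0.31 (limma unadjusted p = 0.0375, adjusted p = 0.471), and that of HP1ag_KO from HP1a_KO was 0.76 ± 0.31 (limma unadjusted p = 0.0412, adjusted p = 0.288). Both rest on the same 2 HP1a_KO livers, and neither passed the threshold after adjustment over all genes. HP1ag_KO and WT differed by -0.02 ± 0.28 (limma adjusted p = 0.992). Of its 50-base stretches 41.8% occur in Gm12346, which was at 9.17 to 19.7 in these livers.

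Hsp90ab1, the constitutive cytosolic HSP90 (chromosome 17, 45567775 to 45573271, minus strand), was 19707, 13276 and 16731 in WT, 14157 and 17073 in HP1a_KO, 14219 in HP1ab_KO and 13134, 18355 and 12306 in HP1ag_KO. Here the HP1a_KO livers lay inside the WT range, unlike those of Hsp90aa1. The HP1a_KO difference from WT was -0.07 ± 0.22 (limma adjusted p = 0.923). Across 9 livers Hsp90aa1 and Hsp90ab1 gave r = 0.562 (exact permutation p = 0.118, adjusted 0.148) and rho = 0.317 (exact permutation p = 0.410), and Hsp90aa1 and Hsph1 r = 0.278 (exact permutation p = 0.462) and rho = 0.1, so neither relation passed. For the first pair, r was 0.852 for the deviations from the group means and 0.324 without HP1ag_KO replicate 2 and WT replicate 3.

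Hspb1, the small heat shock protein HSP25 that holds unfolded proteins without ATP (chromosome 5, 135887919 to 135889563, plus strand), was 111.2, 50.5 and 90.8 in WT, 69.7 and 31.8 in HP1a_KO, 78.3 in HP1ab_KO and 29.2, 118.9 and 39.7 in HP1ag_KO. It was highest in HP1ag_KO replicate 2 and lowest in HP1ag_KO replicate 1, so livers of 1 genotype held both extremes. Its order thus differed from that of Hspa1b. Both promoters hold a 2-unit match, in different letters, and the part of these matches in either order was not tested. HP1ag_KO differed from WT by -0.62 ± 0.56 (limma adjusted p = 0.820) and HP1a_KO by -0.75 ± 0.62 (limma adjusted p = 0.688). Single livers set these values: without HP1ag_KO replicate 1 the first was -0.21 and without replicate 2 it was -1.21, and without HP1a_KO replicate 1 the other was -1.30 and without replicate 2 it was -0.20. Of its 50-base stretches 50.1% occur in other genes, mainly the pseudogene Hsp25-ps1.

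The mitochondrial pair had the lowest spread within genotypes. Hspd1 (chromosome 1, 55077835 to 55088243, minus strand) was 11485, 12037 and 14282 in WT, 9245.2 and 11139 in HP1a_KO, 9850.1 in HP1ab_KO and 11687, 11710 and 10981 in HP1ag_KO. Hspe1 (chromosome 1, 55088132 to 55091307, plus strand) was 2940.4, 2461.7 and 3505 in WT, 2021.9 and 2388.1 in HP1a_KO, 2325.3 in HP1ab_KO and 2448.8, 3078.7 and 2434.8 in HP1ag_KO. For both genes the HP1a_KO livers and the HP1ab_KO liver lay below all 3 WT livers. The log2 difference of HP1a_KO from WT was -0.31 ± 0.13 for Hspd1 (limma unadjusted p = 0.0491, adjusted p = 0.492) and -0.42 ± 0.17 for Hspe1 (limma unadjusted p = 0.0414, adjusted p = 0.478). Without HP1a_KO replicate 1 it was -0.17 for Hspd1 and -0.30 for Hspe1. Across the 9 livers Hspd1 and Hspe1 gave r = 0.852 (exact permutation p = 0.00453, adjusted 0.00755) and rho = 0.9 (exact permutation p = 0.00203, adjusted 0.00513). Without WT replicate 3 and HP1a_KO replicate 1, r was 0.469 over 7 livers, so the linear relation rests on those 2. The ends of the 2 genes overlap on opposite strands, and the strand setting of the counting is not given, so reads of the overlap may be counted for either. Of the 50-base stretches of Hspd1, 42.1% also occur in other genes, mainly Hspd1-ps3 (38.0%), and of those of Hspe1 22.8%. Reads of both genes could thus be split with such copies.

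**Figure D2:**
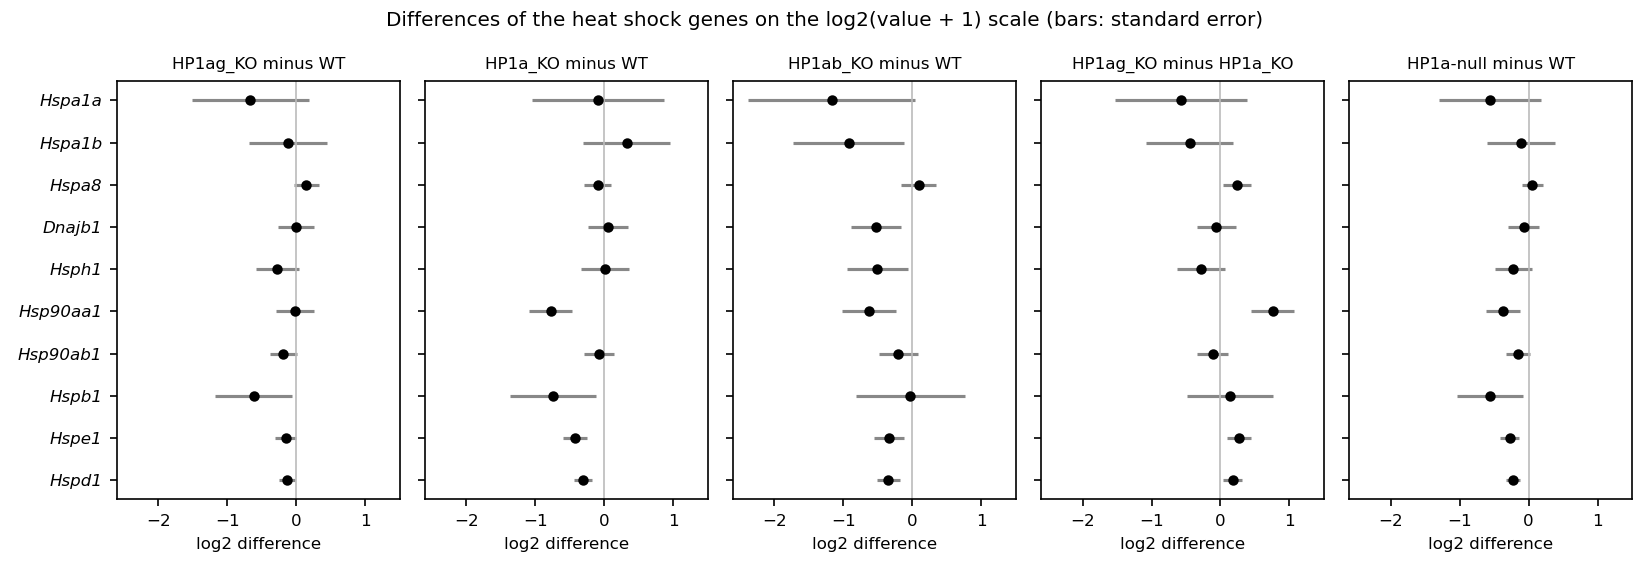
Difference of each heat shock gene in the 5 comparisons on the log2(value + 1) scale (x axis), with bars of 1 standard error from the limma fit. Hsp90aa1 lies at -0.77 for HP1a_KO minus WT and at 0.76 for HP1ag_KO minus HP1a_KO, and the bars of Hspa1a are the widest in each panel.

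Set side by side, the members' median log2 difference was -0.14 for HP1ag_KO against WT, where the median of all tested genes was -0.01, and in all 10 members the livers of the 2 groups overlapped, where 6.46% of all tested genes were higher and 7.05% lower without overlap. For HP1a_KO against WT the median was -0.10 (all genes 0.00), and Hsp90aa1, Hspe1 and Hspd1 were lower without overlap, 3 of 10 beside 15.1% of all tested genes (14.7% were higher). For HP1ab_KO against WT it was -0.43 (all genes 0.00), and the single liver lay below all WT livers for Hspa1a, Hspa1b, Dnajb1, Hsp90aa1, Hspe1 and Hspd1, 6 of 10 beside 24.8% (22.6% were higher). For HP1ag_KO against HP1a_KO it was 0.04 (all genes -0.02), and Hsp90aa1 and Hspe1 were higher without overlap, 2 of 10 beside 17.5% (19.2% were lower). For the 6 HP1α-null livers against WT it was -0.22 (all genes -0.01), and all 10 overlapped, where 1.40% of all genes were higher and 1.74% lower without overlap. The comparisons with WT share its 3 livers, and HP1ag_KO against HP1a_KO reuses the same HP1ag_KO and HP1a_KO livers. The comparisons are therefore not separate observations, and HP1ab_KO has no replicate check.

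Summed markers of neutrophils, Kupffer cells and stellate cells were higher in both HP1a_KO livers than in every WT liver. So was the skeletal muscle sum, near 0 at 14.7 to 18.1 in HP1a_KO and 7.62 to 11.2 in WT. Only 1 of its 5 genes passed the low-value filter. The erythroid, lymphocyte, sinusoidal endothelium and cholangiocyte sums overlapped. Limma called 0 genes of the marker lists for HP1a_KO against WT. DESeq2 called 2 neutrophil, 1 Kupffer cell, 2 stellate cell and 1 hepatocyte genes, where it called 0.643% of all tested genes. Only 3 of the 6 neutrophil genes passed the low-value filter. Neutrophil markers (6 genes) summed to 44.9 to 64.8 in WT, 287 to 488 in HP1a_KO, 165 in HP1ab_KO and 30.3 to 205 in HP1ag_KO, with Ly6g, a defining marker, at 0 to 1.8. Kupffer cell markers (6 of 7 matched) summed to 7808 to 9690 in WT, 11716 to 14065 in HP1a_KO, 13767 in HP1ab_KO and 8908 to 13269 in HP1ag_KO. Stellate cell markers (8 genes, 7 higher in HP1a_KO than in WT) summed to 10516 to 14136 in WT, 14721 to 15230 in HP1a_KO, 15184 in HP1ab_KO and 13726 to 14045 in HP1ag_KO. The part of neutrophils, Kupffer cells and stellate cells in the lower Hsp90aa1, Hspe1 and Hspd1 values of HP1a_KO was not tested. A choice made after seeing the data kept only the 6 livers of high Dbp, 2 WT, 2 HP1a_KO, 1 HP1ab_KO and 1 HP1ag_KO. In that fit the HP1a_KO difference from WT was -0.59 for Hsp90aa1, -0.29 for Hspe1 and -0.21 for Hspd1. Hspa1b was higher by 0.89 and Hspa1a by 0.68, where with all livers they were at 0.32 and -0.10. Of the livers compared, this choice drops only WT replicate 3, the highest for Hspa1a and Hspa1b. Its differences are therefore those of leaving out that liver, and no second check.

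The members differed widely in their spread between livers of 1 genotype. The residual SD on the log2(value + 1) scale was 1.29 for Hspa1a, larger than that of 98.7% of tested genes, 0.87 for Hspa1b (96.4%) and 0.83 for Hspb1 (95.8%). Hsph1 (0.47), Hsp90aa1 (0.42) and Dnajb1 (0.38) lay above the median of all tested genes (0.22) as well. Hsp90ab1 (0.28) and Hspa8 (0.24) were near it, and Hspe1 (0.22) and Hspd1 (0.14, larger than 26.1% of genes) at or below it. Differences between genotypes took 61.9% of the variance of Hspd1, 54.0% of Hsp90aa1 and 50.5% of Hspe1, against a median of 41.6% over all tested genes. For Hspa1a (14.9%) and Hsp90ab1 (14.1%) the share was smallest.

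**Figure D3:**
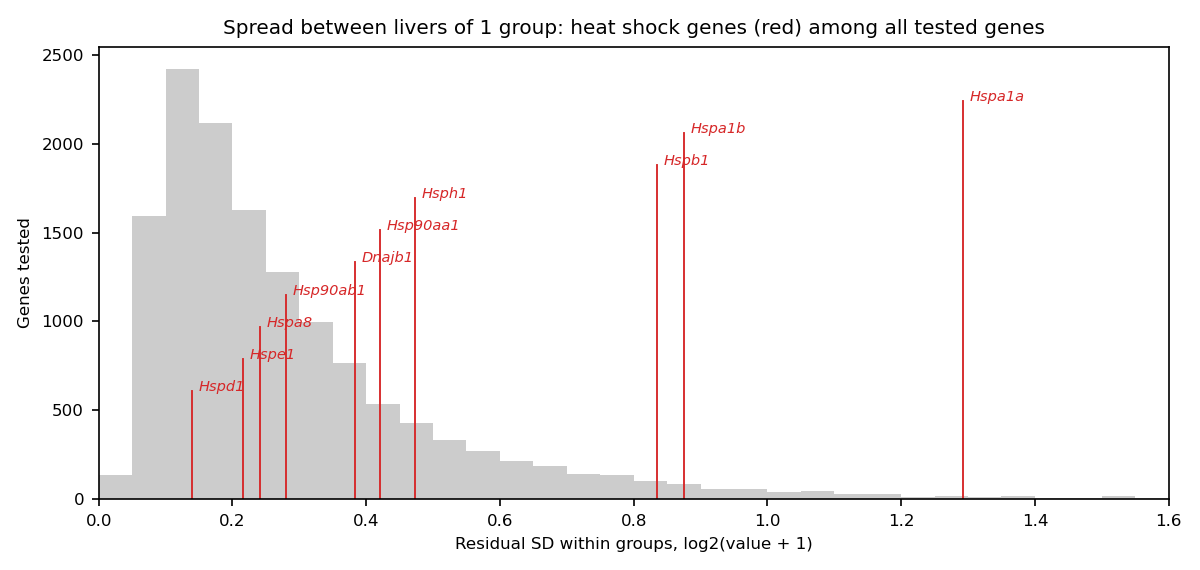
Histogram of the residual SD within genotypes on the log2(value + 1) scale for 13845 tested genes (grey, y axis: number of genes), with a red line at each heat shock gene (line heights only separate the names). Hspd1 lies at 0.14 and Hspa1a at 1.29, where few genes lie.

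Genes that act with the chaperones were read from lists, described by counts and without a test over the list. Hsf1, which drives the heat shock response, lay between 234.9 and 281.3 in all 9 livers, and Hsbp1, which binds heat shock factors, between 898.6 and 1106.3. Their residual SDs within genotypes, 0.08 and 0.07 on the log2 scale, were larger than those of 6.74% and 4.53% of tested genes. Hsf2, between 740 and 1139.4, and Hsf4, between 83.8 and 142.9, varied more, at 0.23 and 0.36 (51.8% and 74.7% of genes). Hsf5 was at 2.2 to 9.1 and was not tested. The Hsf1 transcript was 258.5 in WT replicate 3 and 270.7 in HP1ag_KO replicate 1, inside the range of the other livers while Hspa1b was high. Of the cold-induced RNA-binding proteins, Cirbp was 401.9 and Rbm3 1306 in HP1ag_KO replicate 1, their highest values, and 234 to 317.4 and 694.6 to 1023.9 in the others.

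Among 15 HSP70 cochaperones limma called 0 in each comparison, with a median log2 difference of -0.04 for HP1ag_KO and for HP1a_KO against WT. The most abundant were St13 (4602 to 5972), Dnaja1 (4227 to 6481) and Dnaja2 (2567 to 3510). Bag3, an HSP70 exchange factor named after its values were seen, had its highest value, 727.3, in HP1ag_KO replicate 1, followed by 564.7 in WT replicate 3 and 559.2 in HP1a_KO replicate 2, and 330.8 to 427.3 in the others. Of 8 further HSP70 and HSP110 genes, 7 were tested and 0 called, among them Hspa4 (3580 to 4734), Hspa13 (1537 to 2125) and Hspa4l (752 to 1578).

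The 14 HSP90 cochaperones had 0 limma calls. Against WT, 11 of 14 were lower in HP1ag_KO (median -0.07), 9 in HP1a_KO (-0.09), 8 in HP1ab_KO (-0.13) and 12 in the HP1α-null livers together (-0.08), where the median of all genes was between -0.01 and 0.00. Fkbp4, an immunophilin of HSP90 receptor complexes, was 3786.3, 2703.6 and 3174.4 in WT, 2221.9 and 2129.2 in HP1a_KO, 2213.4 in HP1ab_KO and 2371.4, 4904.6 and 2946.7 in HP1ag_KO. Like Hsp90aa1, Fkbp4 was highest in HP1ag_KO replicate 2 and lower in both HP1a_KO livers than in any WT liver, and its HP1a_KO difference of -0.55 ± 0.28 did not pass (limma adjusted p = 0.528). Hspa4l was also highest in HP1ag_KO replicate 2 (1578.1). So were the endoplasmic reticulum chaperones Hspa5 (39712, with 19761 to 32954 elsewhere), Hsp90b1 (42040, with 22890 to 38555 elsewhere) and Calr (27611, with 18581 to 27007 elsewhere), out of a list of 10 with 0 calls. The others of that list were named after their values were seen. Pdia4 (13212), Canx (19564), Dnajb11 (3879.5) and Sdf2l1 (1454.7) were also highest in HP1ag_KO replicate 2. The remaining genes peaked elsewhere. Dnajb9 was lowest in HP1ag_KO replicate 2 (501.3, with 846.5 to 2042.3 in the other livers). Hyou1 and Dnajc3 were highest in WT replicate 1 (12139 and 11501), ahead of 11458 and 11344 in HP1ag_KO replicate 2. Ahsa1, which activates the HSP90 ATPase, reached 2704.1 in HP1ag_KO replicate 2 and 2683.8 in WT replicate 3.

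The 8 subunits of the cytosolic chaperonin CCT were all lower in HP1a_KO than in WT, at a median of -0.12 (all genes 0.00). None was called by limma or DESeq2, and 1 was at an unadjusted limma p under 0.05. Against the same WT livers, 8 of 8 were also lower in HP1ab_KO (median -0.13) and 7 of 8 in HP1ag_KO (-0.03). The most abundant, Cct5, was 3831.6, 4044.5 and 4852.5 in WT and 3983.2 and 3864.3 in HP1a_KO, with overlap. Of 9 mitochondrial chaperones and proteases 7 were lower in HP1a_KO, at a median of -0.07 and with 0 called, beside 6 in HP1ag_KO and 5 in HP1ab_KO. Hspa9, the mitochondrial HSP70, lay between 15155 and 17984, a narrower range than that of Hspd1. Clpx, the mitochondrial unfoldase, was 7827.5 in WT replicate 3, 6895.4 and 9449.3 in HP1ag_KO replicates 1 and 2, and 2210.8 to 3281.8 in the other 6, the split that Dbp and Arntl also showed.

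**Figure D4:**
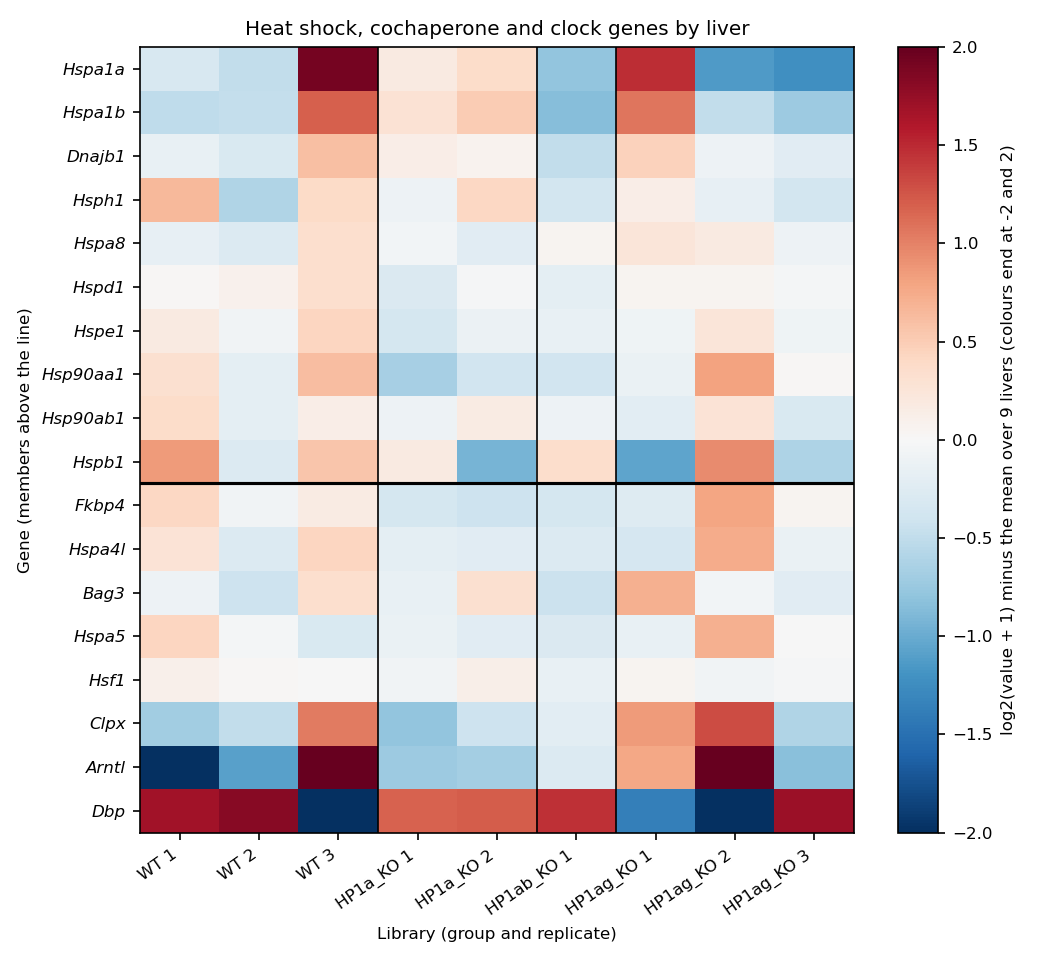
Level of the 10 heat shock genes (above the line) and of selected chaperone, regulator and clock genes in each liver, as log2(value + 1) minus the gene's mean over 9 livers (red higher, blue lower). Hspa1a, Hspa1b, Dnajb1 and Bag3 are red in WT 3 and HP1ag_KO 1, Hsp90aa1, Fkbp4, Hspa4l and Hspa5 in HP1ag_KO 2, and the bottom rows show the clock genes of those livers.

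Of the other heat-induced genes, 0 of 6 were called, and the polyubiquitin gene Ubb (5924 to 8663) did not peak in WT replicate 3 or HP1ag_KO replicate 1. The 3 other small heat shock proteins tested had 0 calls, of which Hspb8 (3016 to 4235) was far more abundant than Hspb1. Of 12 immediate early genes, 11 were tested and 0 called by limma. Among them, Jun (789.4 and 452.9, with 164.8 to 429.3 elsewhere) and Fos (56.2 and 68.4, with 13.6 to 52 elsewhere), named after their values were seen, were highest in WT replicate 3 and HP1ag_KO replicate 1, the livers where Hspa1a, Hspa1b and Dnajb1 were high. Atf3 was 57.1 and 79.3 there, 57.6 in HP1a_KO replicate 2 and 19.6 to 44.5 in the others. Of the 3 most abundant of the list, Dusp1 was highest in WT replicate 3 (1910.3) but 285.3 in HP1ag_KO replicate 1, Junb was highest in HP1ag_KO replicate 3 (1115.7) and Zfp36 in WT replicate 1 (994.4). The part of the immediate early response in the heat shock values was not tested. DESeq2 called Egr1 for HP1ag_KO against HP1a_KO, at 159.6 and 669.3 in HP1a_KO and 103, 58.3 and 130.6 in HP1ag_KO.

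The part of clock state in the heat shock values was not tested. The 3 livers of low Dbp were WT replicate 3, HP1ag_KO replicate 1 and HP1ag_KO replicate 2. Hspa1a, Hspa1b and Dnajb1 were high in the first 2 of them, but in the third Hspa1a was 11.2, Hspa1b 244.5 and Dnajb1 575.4, inside the range of the livers with high Dbp. Hsp90aa1 was 8092.5 and 9235 in the first and the third, above every liver with high Dbp, and 4805.6 in HP1ag_KO replicate 1. All 4 genes were thus high in WT replicate 3, and apart in the other 2 livers.

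The genes most like the set were found by the Pearson r, over the 9 livers, with the mean of the 10 members' centred log2(value + 1). Among the 8 with the highest r were Slc5a3 (r = 0.963), Mrpl44 (0.945), the small RNA gene Gm26205 (0.943), Nufip2 (0.932), Cxcr4 (0.923), Zrsr1 (0.920) and Ccdc117 (0.918), chosen by that value and so without a test. Slc5a3, the sodium/myo-inositol cotransporter, was 696.4, 586.6 and 903.6 in WT, 662.3 and 673.6 in HP1a_KO, 530.6 in HP1ab_KO and 718.2, 621.4 and 522.3 in HP1ag_KO. Of the members themselves, Dnajb1 (r = 0.849) and Hspa1a (0.802) lay closest to that mean and Hspb1 (0.280) farthest from it. Each member is itself part of the mean, which was not scaled, so members of wide spread weigh more in it.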

How the data were processed

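Ribosomal RNA was removed and stranded libraries were made, per the labels. Build mm10, DESeq2 1.0.19, HTSeq 0.5.4p3, Bowtie2 2.1.0, TopHat2 2.0.10 and CASAVA 1.8.2 are named in the submitters' processing notes, with no roles. The annotation release is not given in the sources used here, nor is the strand setting. The deposited values are a normalised signal, reads divided by 1 size factor per library (0.545 to 1.25). Whole reads were recovered from their steps (100% whole, tolerance 0.1 read) for edgeR 4.0.16 and DESeq2 1.42.0, which called 0 and 11 to 459 genes per comparison.

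All 9 libraries of 4 groups entered 1 fit of limma 3.58.1 (R 4.3.3, mean trend, 5 residual and 3.13 prior degrees of freedom) on log2(value + 1), for 13845 genes with a mean of at least 10, with Benjamini-Hochberg adjustment over all of them and a threshold of 0.05. The fit was tested on simulated data. The lone HP1ab_KO library was taken to vary as the others do. Python 3.11.15 computed the rest. Depth limits Hspa1a most, at 10 reads where it was lowest. List genes named were the 3 with the highest mean per list, all regulators and cold-induced genes, and genes called by limma or DESeq2, with exceptions stated. Of the genes this rule names, 2 are not reported here. List symbols unmatched in the table were Hspb3, Ciart, Adgre1, Pnlip and Cpb1. The members, lists and alternatives were chosen with earlier results of these data known. Replicate numbers follow accession order and pair nothing. Alternatives were the pseudocount, filter, scaling, limma settings, count tests, leaving out each replicate, and 1 added later, keeping the 6 livers with high Dbp.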

Additional observations from a re-analysis of the deposited data

Results flagged for a closer look

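In 2 of the 10 members 1 liver lay far from the other 5 of the 6 HP1α-null livers. For Hspa1a this was HP1ag_KO replicate 1 at 73.82, whose gap to the next liver was 0.635 of the range, with 0.625 as the 95% critical value for 6 samples. For Hsp90aa1 it was HP1ag_KO replicate 2 at 9235, with a gap of 0.653 of the range. Chance alone picks out about 1 in 20 groups by this criterion, and the 6 livers are of 3 genotypes. The 2 livers are different animals of the same genotype. No group of 1 genotype has the 4 samples that this criterion needs.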

How the results depend on the processing

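No alternative, among those run, called any of the 10 members, and of 585 member differences under other settings 566 kept their direction and side of the threshold and 19 changed sign, all of members not called. For HP1ag_KO against WT, Dnajb1 changed to 0.053 with equal totals and 0.0037 with only the 6 livers of high Dbp, and Hsp90aa1 to 0.035 with equal totals, 0.023 with edgeR and 0.015 with DESeq2. For HP1a_KO against WT, Hspa1a changed to 0.678 and Hspa8 to 0.085 with those 6 livers, Dnajb1 to -0.00064 with DESeq2, and Hsph1 to -0.034 with equal totals, -0.052 with edgeR and -0.061 with DESeq2. For HP1ab_KO against WT, Hspb1 changed to 0.062 with the 6 livers. For HP1ag_KO against HP1a_KO, Hspa1a changed to 0.038 with edgeR and 0.032 with DESeq2, Dnajb1 to 0.037 with equal totals and Hspb1 to -0.242 with the 6 livers. For the HP1α-null livers against WT, Hspa1a changed to 0.033, Hspa1b to 0.295 and Dnajb1 to 0.104 with the 6 livers. For HP1a_KO and HP1ab_KO against WT, keeping the 6 livers drops only WT replicate 3 of the livers compared. Those changes are therefore the same as without that replicate. The cause of the changes was not tested.

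Leaving out 1 replicate at a time changed the sign in 34 of 270 cases. The ranges that crossed 0 were, for HP1ag_KO against WT, Hspa1a -1.55 to 0.11, Hspa1b -0.68 to 0.441, Dnajb1 -0.207 to 0.275 and Hsp90aa1 -0.306 to 0.165. For HP1a_KO against WT they were Hspa1a -0.525 to 0.678, Hspa8 -0.215 to 0.085, Dnajb1 -0.121 to 0.334, Hsph1 -0.363 to 0.265 and Hsp90ab1 -0.224 to 0.062. For HP1ab_KO against WT they were Hspa8 -0.026 to 0.275 and Hspb1 -0.356 to 0.206. For HP1ag_KO against HP1a_KO they were Dnajb1 -0.264 to 0.077, Hsp90ab1 -0.29 to 0.021 and Hspb1 -0.459 to 0.686. For the HP1α-null livers against WT they were Hspa1a -0.988 to 0.215, Hspa1b -0.394 to 0.457, Hspa8 -0.062 to 0.239, Dnajb1 -0.248 to 0.206 and Hsph1 -0.59 to 0.035.

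Over all genes limma called 0 in each comparison (1050, 1404, 512, 2240 and 874 at an unadjusted p under 0.05, in the order HP1ag_KO, HP1a_KO and HP1ab_KO against WT, HP1ag_KO against HP1a_KO, HP1α-null against WT), edgeR 0, and DESeq2 99, 89, 11, 459 and 46. Without a filter limma called 54 for HP1ab_KO against WT, with a pseudocount of 5 it called 1 for HP1a_KO against WT, and without the trend 7 for HP1ag_KO against HP1a_KO. Leaving out 1 replicate gave 0 to 2, 0 to 5, 0 to 2, 0 to 5 and 0 to 1 calls in the same order, with calls appearing without WT replicate 3 (1 for HP1ag_KO, 2 for HP1ab_KO and 1 for HP1α-null against WT), without HP1ag_KO replicate 1 (2 against WT and 3 against HP1a_KO) and without HP1a_KO replicate 2 (5 for HP1a_KO against WT and 5 for HP1ag_KO against HP1a_KO). Scaling to equal totals moved the median of all genes to at most 0.08 (HP1ag_KO against HP1a_KO) and, among genes at an unadjusted p under 0.05, the split of higher and lower from 532 and 518 to 742 and 303 for HP1ag_KO against WT, from 759 and 645 to 523 and 967 for HP1a_KO against WT, and from 1080 and 1160 to 1753 and 607 for HP1ag_KO against HP1a_KO. No paired analysis was possible because the labels carry animal numbers and no replicate numbers shared between groups. Hspa1a, with 10 reads in its lowest liver, is limited by depth.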
